A study of Mus musculus with 8 samples.

Results

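The genes of the proteasome were examined in mouse peripheral blood after acute restraint. Members were the symbols of the count table beginning with Psma, Psmb, Psmc, Psmd, Psme or Psmg followed by a number, and 47 of 21878 symbols met this rule. They comprised 16 subunits of the core particle, 17 of the regulatory particle, 4 activator subunits, 3 immunoproteasome subunits (Psmb8, Psmb9 and Psmb10) and 7 assembly chaperones (Psmd5, Psmd9, Psmd10, Psmg1, Psmg2, Psmg3 and Psmg4). A gene was tested where at least 4 of the 8 samples had 10 or more counts, and 45 members passed this limit. The other members were Psmb11, the thymus-specific catalytic subunit, with 0 counts in every sample, and Psma8, a testis-specific subunit, with at most 2 counts in a sample. The study compared a control group and a stress group of 4 wild-type (WT) female C57BL/6 mice each, at 6-8 weeks of age. Mice of the stress group were held for 6 hours in a ventilated tube, and control littermates stayed in their cage. Food and water were withheld from both groups. RNA of whole peripheral blood was sequenced, and the labels gave the source as blood cells without separating any cell type. Where fewer cells of a type are present and where each cell holds less RNA, whole blood gives the same reading, and these cannot be told apart here.

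The proteasome is the barrel-shaped protease that degrades most ubiquitin-tagged proteins of the cytosol and nucleus. Its core particle stacks rings of structural alpha subunits around rings of beta subunits, of which Psmb5, Psmb6 and Psmb7 cut peptide bonds. The regulatory particle recognises ubiquitin through its lid and base, removes it and unfolds the substrate with the ATPases Psmc1 to Psmc6, while the activators Psme1, Psme2, Psme3 and Psme4 open the core by other means. In leukocytes, and in other cells exposed to interferon-gamma, Psmb8, Psmb9 and Psmb10 take the places of Psmb5, Psmb6 and Psmb7, and the resulting immunoproteasome makes peptides suited to MHC class I molecules. Maturing red cells also degrade much of their protein through ubiquitin and the proteasome.

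The deposited counts held 31471145 to 39014775 counts per sample in the control group and 25978683 to 29655725 in the stress group. Haemoglobin genes took 51.9 to 63.8% and 61.2 to 75.5% of them, and the remaining counts ranged from 11409246 to 18771951 and from 6352711 to 11007593. Stress replicate 3 stood apart, with the highest haemoglobin share and the fewest other counts. Levels are given as CPM, counts scaled to a common library size with the trimmed-mean (TMM) method, which sets the bulk of genes equal between samples, and the median log2 fold change (stress over control) of the 11718 tested genes was -0.03 on that scale. On total counts alone the same median was -0.82, so each direction given here is relative to the bulk of expressed genes. Among the cell type markers, 7 of 9 tested neutrophil genes, 5 of 6 monocyte genes and 6 of 6 platelet genes rose, 4 of 8 B cell genes and 1 of 6 NK cell genes fell, and 0 of 8 T cell genes passed edgeR's quasi-likelihood test at an adjusted p below 0.05 (0 at an unadjusted p below 0.05, and 0 by DESeq2 and limma-voom). Over all tested genes, 10.4% rose and 3.69% fell at that adjusted p. The part of the marker shifts in the results on the proteasome was not tested.

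Promoter sequences are shown for 3 members on which the results turn, Psme3 and Psmd4, which behaved unlike the other subunits, and Psmb5, the constitutive subunit that Psmb8 replaces. Each run holds the 250 bases before the RefSeq start site (GRCm38.p6), written 5′ to 3′ on the gene's strand, and capitals mark every searched motif found on either strand.
Psme3, chr11:101315963-101316212, plus strand: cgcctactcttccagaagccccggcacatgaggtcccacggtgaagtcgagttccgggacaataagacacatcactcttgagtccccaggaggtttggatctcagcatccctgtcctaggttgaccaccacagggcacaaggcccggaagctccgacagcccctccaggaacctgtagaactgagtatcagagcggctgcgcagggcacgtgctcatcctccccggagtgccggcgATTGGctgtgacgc
Psmd4, chr3:95042615-95042864, minus strand: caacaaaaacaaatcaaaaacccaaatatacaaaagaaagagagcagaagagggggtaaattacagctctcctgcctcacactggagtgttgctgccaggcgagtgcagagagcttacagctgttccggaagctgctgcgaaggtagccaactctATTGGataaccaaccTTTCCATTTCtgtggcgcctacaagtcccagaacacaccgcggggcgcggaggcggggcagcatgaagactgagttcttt
Psmb5, chr14:54617996-54618245, minus strand: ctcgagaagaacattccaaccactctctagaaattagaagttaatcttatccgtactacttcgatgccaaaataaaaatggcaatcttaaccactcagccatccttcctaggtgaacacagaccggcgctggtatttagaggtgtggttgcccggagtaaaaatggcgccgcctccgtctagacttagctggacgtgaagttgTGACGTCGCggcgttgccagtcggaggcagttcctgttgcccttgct
The motifs searched were CCAAT, the box bound by NF-Y; TGACTCA and TGACNNNGC, the AP-1 site and the core of the antioxidant response element; the core of the interferon-stimulated response element (GAAA, any pair of bases, GAAA); and TTCNNNGAA, the site form bound by STAT factors. A TGACTCA followed by GC also counts as TGACNNNGC. The capitals in Psme3 are CCAAT read on the other strand, those in Psmd4 are CCAAT and the core of the interferon element on the other strand, and those in Psmb5 are TGACNNNGC. Windows of 250 bases before to 50 after the start were found for 39 members. CCAAT lay in 14 of them (35.9%), against 37.9% of all 27025 promoters. TGACNNNGC lay in 6 (15.4% against 12.5%), TGACTCA in 1, that of Psmd9 (2.56% against 5.17%), and TTCNNNGAA in 3, those of Psmb8, Psmd2 and Psmg1 (7.69% against 8.47%). The core of the interferon element lay in 5, those of Psmb3, Psmd4, Psmd9, Psme1 and Psmg4 (12.8% against 3.49%). These matches describe the letters only. The 250 bases upstream of Psmb8, Psmb9, Psmb10 and Psmd13 overlap annotated exons by 52 to 250 bases and are not printed, and the printed run of Psmb5 holds 27 bases of annotated exons.

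The proteasome as a whole moved little after restraint. Of the 45 tested members, 1 rose and 0 fell at an adjusted p below 0.05 (edgeR quasi-likelihood test, Benjamini-Hochberg adjustment over all tested genes), against 10.4% of all genes rising and 3.69% falling. DESeq2 called 4 members higher, against 1524 of all 12532 genes, and limma-voom 3, against 1356 of 11718. Neither called a member lower, while they called 596 and 450 genes lower. At an unadjusted p below 0.05, 9 members were higher (18.2% of all genes) and 0 were lower (13% of all genes). At the limits used in the study, an absolute log2 fold change above 1 with an adjusted p below 0.01, 0 members were called in either direction, against 1.69% and 0.0171% of all genes. At the adjusted thresholds, the share of members called by edgeR was thus below that of all tested genes in each direction. Shares as low as 3.69%, 1.69% and 0.0171% would give few or no calls among 45 members, so 0 calls there say little. In 3 members, Psma2, Psmd8 and Psmd13, all stress values exceeded all control values (11.1% of all genes), and in 0 members did all stress values lie lower (9.88%). Nothing in the labels beyond the replicate number describes how far the mice were handled independently, so p-values measure the spread between these samples.

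Most members nevertheless leaned the same way by a small amount. The log2 fold change was above 0 in 36 of 45 members, against 47.1% of all genes, with a median of 0.12 and quartiles of 0.04 and 0.22. By role, the medians were 0.17 for the alpha ring, 0.15 for the constitutive beta subunits, 0.12 for the immunoproteasome, 0.09 for the base, 0.12 for the lid, 0.15 for the activators and -0.03 for the assembly chaperones. Stress replicate 3 had the highest level of the 8 samples in 35 of the 45 members, against 23.7% of all genes. Without it the median over members was 0.06, 1 member was called (higher, as were 1139 of all 11701 genes) and 4 had an unadjusted p below 0.05. The share of all genes at that unadjusted limit is not given for this fit, so the 4 cannot be set against it. The class medians without it were 0.04 for the core, 0.07 for the regulatory particle, 0.05 for the immunoproteasome, 0.11 for the activators and 0.02 for the chaperones. On total counts alone, 44 of 45 members had a negative log2 fold change (median -0.72), against 90% of all genes, and 11 members were called lower, against 49.6% of all genes.

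**Figure D1:**
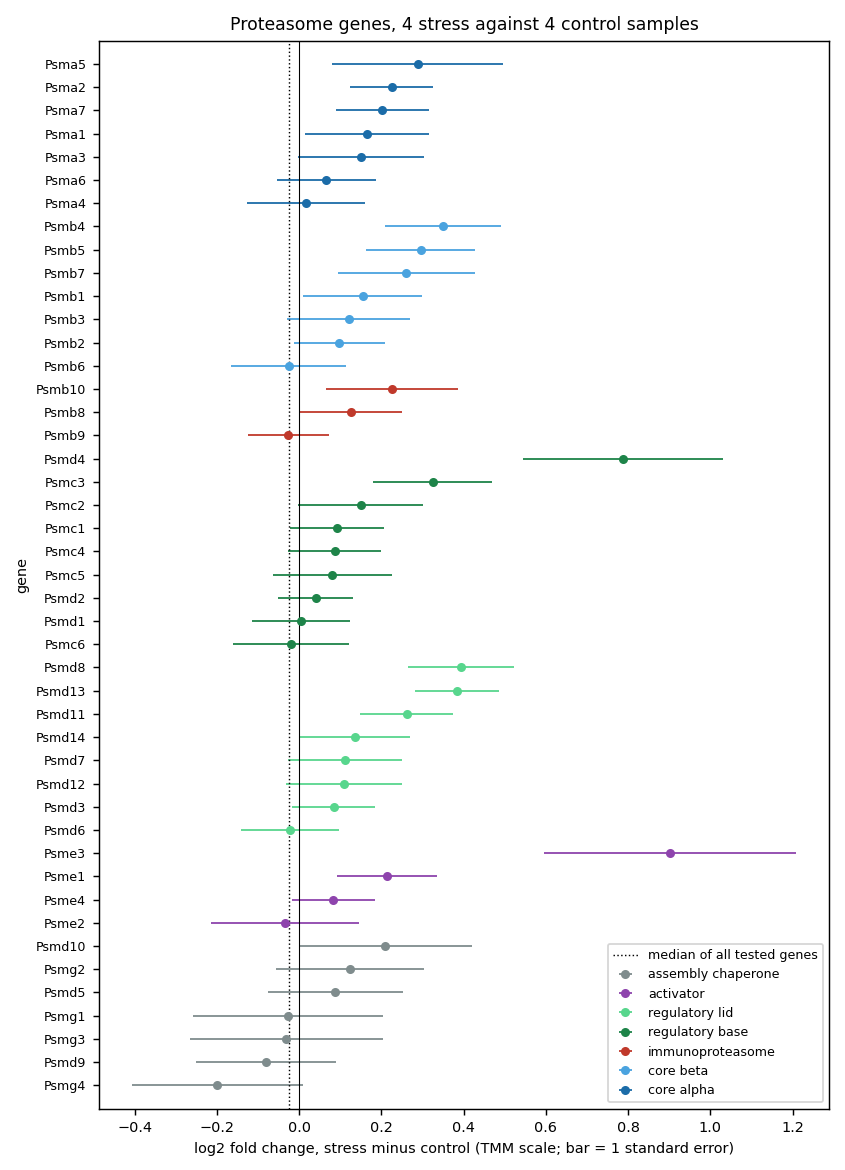
Log2 fold change (stress over control, TMM-scaled) of the 45 tested members, coloured and grouped by role, with bars of 1 standard error and a dotted line at the median of all tested genes (-0.03). Most points lie slightly above 0, Psme3 (0.90) and Psmd4 (0.79) stand to the right of the rest, and of all points only Psmd13 (0.38) had an adjusted p below 0.05.

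Psmd13, a structural subunit of the lid, was the member that rose. It lies at chr7:140881968-140898643 on the plus strand (GRCm38). Its level was 14.8, 13.4, 15.5 and 14.5 CPM in the control samples and 18.4, 19.7, 20.8 and 17.2 CPM in the stress samples. The groups did not overlap, and the means were 14.5 ± 0.852 and 19.0 ± 1.55 CPM (SD, n = 4 each). The log2 fold change was 0.38 (SE 0.10), with an adjusted p of 0.0253 by edgeR's quasi-likelihood test, and 0.36 with an adjusted p of 0.0270 without stress replicate 3. Without control replicate 1, 2 or 3 the adjusted p was 0.0559, 0.101 or 0.0534, so the call rests on each of these libraries. An exon of Psmd13 overlaps Sirt3, the mitochondrial deacetylase gene on the opposite strand, which also rose (log2 fold change 0.51, SE 0.16, edgeR adjusted p = 0.0447). The strand setting of the counting is not given in the sources used here, so reads of the overlap may belong to either gene.

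Of the other 7 lid members, 6 had a log2 fold change above 0, against 47.1% of all genes. By edgeR 0 of them passed, against 10.4% of all genes higher and 3.69% lower. DESeq2 called Psmd8 higher, as it did 1524 of all 12532 genes. Psmd8, another structural lid subunit, had 18.1, 21.6, 19.5 and 20.1 CPM in the control group and 25.7, 22.6, 33.3 and 22.9 CPM in the stress group. Every stress sample lay above the controls, with stress replicate 3 the highest, and the log2 fold change was 0.39 (SE 0.13, edgeR adjusted p = 0.0578). Psmd11, which helps to hold lid and base together, had a log2 fold change of 0.26 (edgeR adjusted p = 0.136), and Psmd14, the lid's deubiquitinase, had 0.14 (edgeR adjusted p = 0.520). The remaining lid subunits Psmd3, Psmd6, Psmd7 and Psmd12 lay between -0.02 and 0.11. Shfm1 (also called Sem1), the small lid subunit whose symbol the rule did not take in, rose from 5.16 ± 0.961 to 7.97 ± 1.58 CPM (log2 fold change 0.62, SE 0.17, edgeR adjusted p = 0.0307), again without overlap between the groups.

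Among the base subunits, Psmd4 stood apart. The 6 ATPases Psmc1 to Psmc6 had log2 fold changes from -0.02 (Psmc6) to 0.32 (Psmc3, edgeR adjusted p = 0.147), and the scaffold subunits Psmd1 and Psmd2 had 0.00 and 0.04. Psmd4, the ubiquitin receptor that captures tagged substrates, had 78.0, 58.1, 43.4 and 92.7 CPM in the control samples and 109.6, 125, 156 and 78.7 CPM in the stress samples. Control replicate 4 lay above stress replicate 4, so the groups overlapped. The log2 fold change was 0.79 (SE 0.24), with an edgeR adjusted p of 0.0512 that fell just short, and 0.64 (adjusted p = 0.197) without stress replicate 3.

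Psme3 was by far the most abundant member. It encodes the nuclear activator REG-gamma, which opens the core for substrates without ubiquitin, and lies at chr11:101316213-101323537 on the plus strand (GRCm38). Its level was 722, 480.4, 312 and 865 CPM in the control samples and 1242, 1058, 1424 and 722 CPM in the stress samples. The lowest stress sample lay within the control range, and the control samples differed among themselves more than for most members. The means were 595 ± 246 and 1111 ± 299.8 CPM, and the log2 fold change was 0.90 (SE 0.31, edgeR adjusted p = 0.0659), or 0.78 (adjusted p = 0.156) without stress replicate 3. DESeq2 and limma-voom called it higher, with adjusted p of 0.0153 and 0.0476. Per kilobase of exon, Psme3 had 202 CPM in the control group, against 24.2 for Psmd4, the next member, and a median of 5.06 over all members. Psme3 alone took 31.3 to 54.9% of all counts of the members in the control samples and 51.0 to 61.7% in the stress samples. A sum over the members therefore depends strongly on Psme3, although its share was only 42.0% in control replicate 2 and 31.3% in control replicate 3. All members together took 0.368 to 0.437% of the non-haemoglobin counts in the control group and 0.402 to 0.497% in the stress group, whereas without Psme3 and Psmd4 the ranges were 0.171 to 0.237% and 0.157 to 0.175%.

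**Figure D2:**
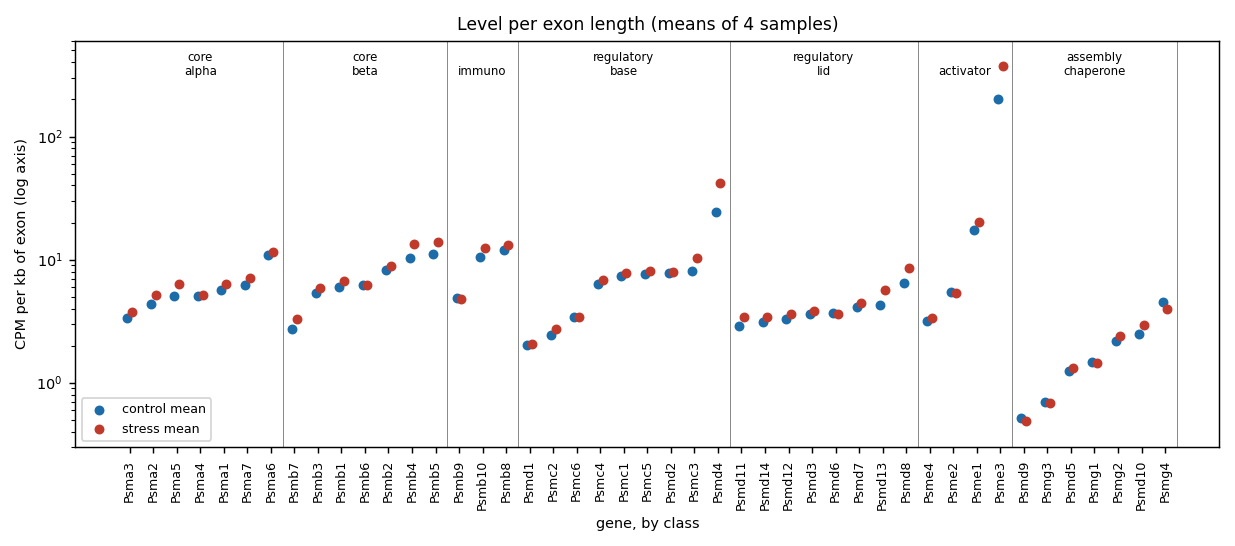
Mean level of the control group (blue) and of the stress group (red) per kilobase of exon (CPM per kb, log axis) for the 45 tested members by role, with 4 samples behind each mean. In the control group Psme3 at 202 and Psmd4 at 24.2 lie above all others, and the lowest is the assembly chaperone Psmd9 at 0.515.

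Psme3 and Psmd4 followed the red cell genes from sample to sample, which the other members did not. This comparison was chosen after the values had been seen. Bpgm, the red cell enzyme that makes the haemoglobin ligand bisphosphoglycerate, had 7257, 4547, 2923 and 8099 CPM in the control samples and 12176, 10199, 14811 and 7401 CPM in the stress samples. The order of the samples was the same as for Psme3, with control replicate 3 lowest and stress replicate 3 highest for both. The count ratio of Psme3 to Bpgm ranged over 1.11-fold across the 8 samples, and 0 of the 11545 genes with counts in every sample had a narrower range. Against Alas2, the first enzyme of red cell haem synthesis, it ranged over 1.18-fold (7 genes narrower), and against the mean of 7 erythroid markers over 1.16-fold (9 genes narrower). The ratio of Psmd4 to Bpgm ranged over 1.65-fold, and 170 genes (1.47%) were narrower. The platelet markers ranged from 1.76-fold (Treml1) to 2.48-fold (Gp1ba), and the red cell marker Slc4a1 over 1.76-fold. A range near that of Psmd4 was therefore not particular to red cell genes. For the other 43 members the ratio to Bpgm ranged over 3.16- to 7.83-fold, in most of them less than for the median gene (5.69-fold). Against the core subunit Psmb5, Psme3 varied 3.99-fold and Psmd4 3.04-fold. All 7 erythroid markers had log2 fold changes above 0 (median 1.03), against 47.1% of all genes. In edgeR 0 passed an adjusted p of 0.05, against 10.4% of all genes higher. At an unadjusted p of 0.05, 3 passed, against 18.2%. DESeq2 called 3 of the 7 markers at an adjusted p of 0.05, and limma-voom 1 of these markers. Their summed level was 278507 to 607383 CPM in the control group and 528822 to 1404670 CPM in the stress group, where TMM scaling lets sums exceed the nominal library size. On total counts alone the median of these markers was 0.20, while Psme3 had 0.14 and Psmd4 -0.01. The part of red cell RNA in the group difference of Psme3 and Psmd4 was not tested. Without Psme3 and Psmd4, 34 of 43 members were higher and 9 lower, against 47.1% of all genes higher. Their median was 0.11, with a range from -0.20 to 0.39.

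**Figure D3:**
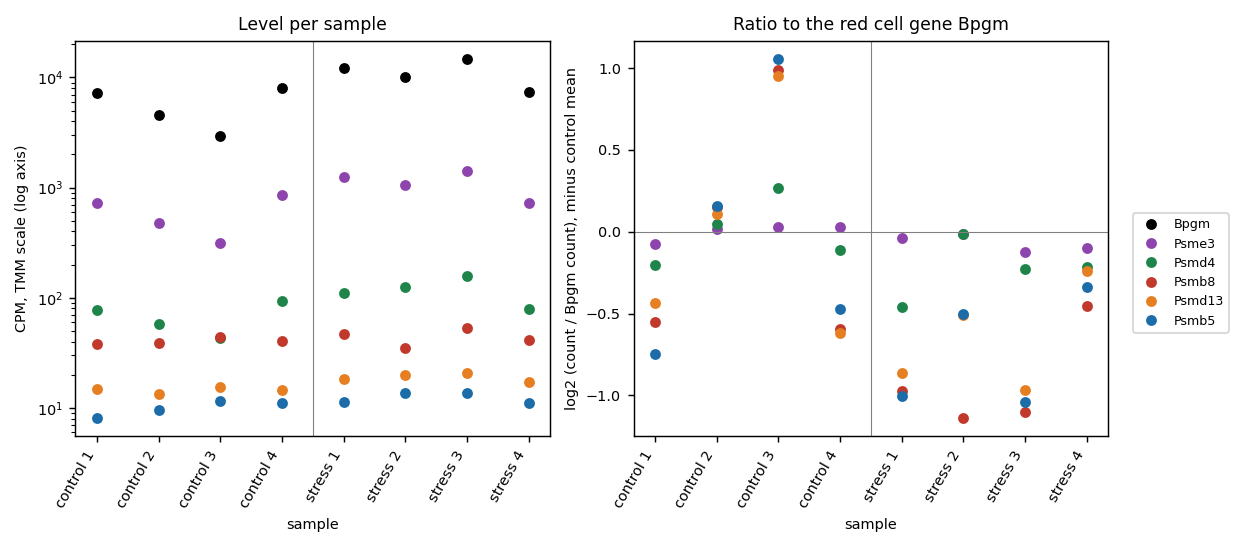
Left, levels of Bpgm, Psme3, Psmd4, Psmb8, Psmd13 and Psmb5 in each of the 8 samples (CPM, log axis); right, the log2 count ratio of the last 5 to Bpgm, minus the control mean. Psme3 stays near 0 in every sample (1.11-fold range) and Psmd4 varies over 1.65-fold, while the other 3 are high in control replicate 3 and low in stress replicates 1 and 3.

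The other activators did not stand out. Psme1 and Psme2 form the interferon-inducible activator ring of antigen-presenting cells. Psme1 had 35.2, 37.5, 40.6 and 39.6 CPM in the control samples and 41.8, 41.6, 55.7 and 38.7 CPM in the stress samples, of which the last lay within the control range (log2 fold change 0.21, SE 0.12, edgeR adjusted p = 0.253). Psme2 had 7.59 to 11.5 CPM in the control group and 7.56 to 12.1 CPM in the stress group (log2 fold change -0.03, SE 0.18, edgeR adjusted p = 0.920). Reads of Psme2 may be shared with its retrogene copy Psme2b, and with both counts summed the log2 fold change was 0.06. Psme4, a large single-chain activator, had 24.4 to 28.5 and 25.9 to 30.9 CPM (log2 fold change 0.08, SE 0.10, edgeR adjusted p = 0.613).

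The immunoproteasome subunits were well expressed in the blood of both groups and their levels overlapped. Psmb8, which replaces Psmb5, had 37.7, 38.5, 44.2 and 40.8 CPM in the control samples and 47.1, 35.3, 52.6 and 41.1 CPM in the stress samples. Its highest and lowest values both belonged to the stress group, and the means were 40.3 ± 2.89 and 44.0 ± 7.47 CPM (log2 fold change 0.12, SE 0.13, edgeR adjusted p = 0.531). Psmb9, which replaces Psmb6, had 17.7, 18.5, 17.1 and 17.9 CPM in the control samples and 18.0, 16.5, 19.3 and 16.2 CPM in the stress samples. The control values lay inside the range of the stress values (log2 fold change -0.03, SE 0.10, edgeR adjusted p = 0.886). The exons of Psmb9 overlap those of Tap1 on the opposite strand. Psmb10, which replaces Psmb7, had 15.7, 15.7, 20.3 and 20.3 CPM in the control samples and 19.2, 18.4, 29.2 and 17.9 CPM in the stress samples. Only stress replicate 3 exceeded the controls (log2 fold change 0.22, SE 0.16, edgeR adjusted p = 0.365), and without it the log2 fold change was 0.06. Per kilobase of exon, the control levels were 11.9 CPM for Psmb8 and 11.2 for Psmb5, 4.86 for Psmb9 and 6.26 for Psmb6, and 10.6 for Psmb10 and 2.71 for Psmb7. The lengths sum all annotated exons of a gene, so these levels compare genes only roughly.

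The balance of immune and constitutive catalytic subunits was compared as a count ratio within each sample, which no scaling between samples can change. For Psmb8 to Psmb5 the ratio was 4.63, 4.02, 3.85 and 3.71 in the control samples and 4.13, 2.61, 3.87 and 3.73 in the stress samples. Apart from stress replicate 2, all samples lay close together. The mean log2 ratio was 2.01 ± 0.14 for the controls and 1.82 ± 0.30 after restraint (SD, n = 4 each), a difference of -0.19 with a 95% interval from -0.60 to 0.21 (two-sided exact permutation test, p = 0.400). For Psmb9 to Psmb6 the mean log2 ratios were 0.61 ± 0.22 and 0.60 ± 0.12, with a difference of -0.01 and an interval from -0.32 to 0.30 (exact permutation test, p = 0.943). For Psmb10 to Psmb7 they were 0.94 ± 0.14 and 0.93 ± 0.22, with a difference of -0.02 and an interval from -0.34 to 0.31 (exact permutation test, p = 0.914). Adjusted over these 3 ratios, each exact permutation p was 0.943, and the smallest p that 4 against 4 samples allow is 0.0286. The intervals, unlike the p-values, came from a t distribution with the variance pooled over both groups. Shifts in balance within them remained compatible with these samples.

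**Figure D4:**
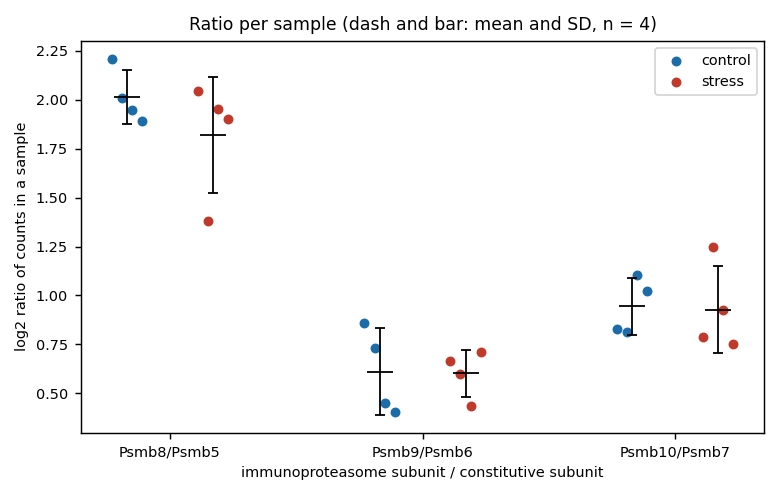
Log2 count ratio of each immunoproteasome subunit to the constitutive subunit it replaces, for the 4 control and 4 stress samples (points) with the group mean and SD (bars). The groups overlap for all 3 ratios, and the lowest Psmb8 to Psmb5 ratio belongs to stress replicate 2 (1.38 on the log2 scale).

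In the core particle, 13 of 14 tested subunits had a log2 fold change above 0, against 47.1% of all genes. By edgeR 0 were called, against 10.4% of all genes higher and 3.69% lower, and 3 were higher at an unadjusted p below 0.05, against 18.2%. DESeq2 and limma-voom also called 0. The alpha ring ranged from 0.02 (Psma4) to 0.29 (Psma5). Psma2, a structural alpha subunit, had 15.6, 16.1, 15.6 and 16.8 CPM in the control samples and 19.4, 17.3, 21.0 and 17.5 CPM in the stress samples. The groups did not overlap, yet the log2 fold change was 0.23 (SE 0.10, edgeR adjusted p = 0.147). The constitutive beta subunits ranged from -0.03 (Psmb6) to 0.35 (Psmb4, a structural beta subunit, edgeR adjusted p = 0.113). The catalytic Psmb5 had 8.15, 9.56, 11.5 and 11.0 CPM in the control samples and 11.4, 13.5, 13.6 and 11.0 CPM in the stress samples, with overlap (log2 fold change 0.30, SE 0.13, edgeR adjusted p = 0.148). Psmb7, the catalytic subunit with trypsin-like activity, had 8.80 to 9.97 CPM in the control group and 7.75 to 15.4 CPM in the stress group (log2 fold change 0.26, SE 0.17, edgeR adjusted p = 0.309).

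**Figure D5:**
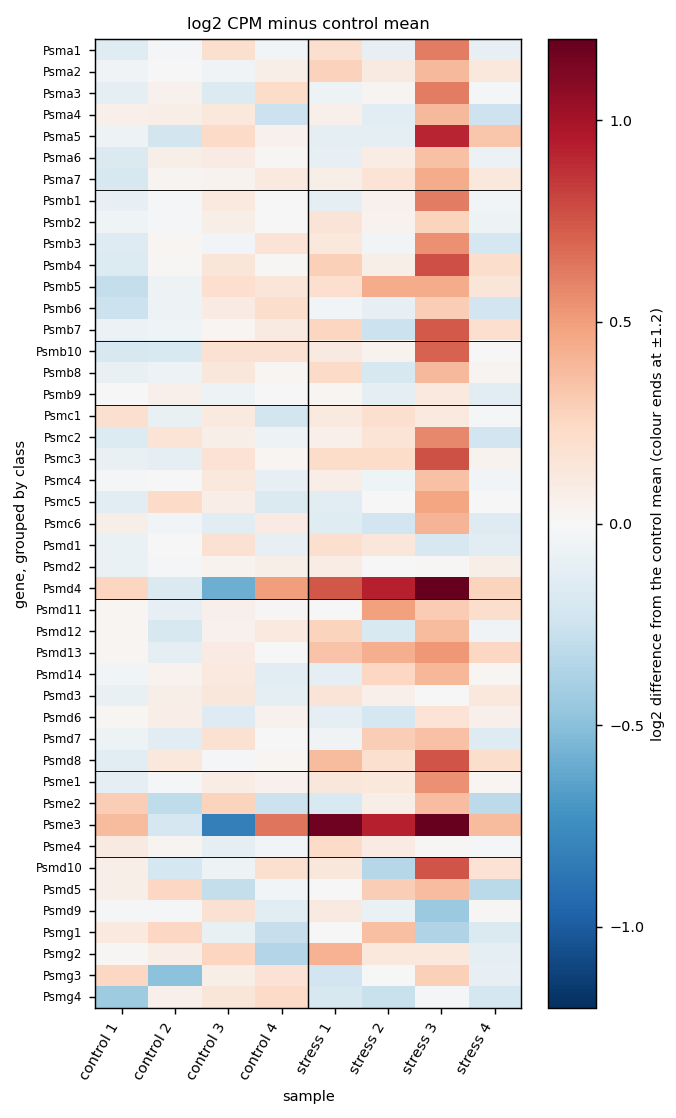
Log2 CPM of each tested member in the 8 samples, minus the member's mean over the control group, with members ordered by role. Psme3 and Psmd4 vary most, also among the controls, and stress replicate 3 is the highest column for 35 of 45 members.

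The assembly chaperones, which guide the building of the rings and the base and then leave, had the lowest median level of the classes, 1.47 CPM per kilobase in the control group, with a range from 0.515 to 4.48. Of the 7, 3 had positive and 4 negative log2 fold changes, against 47.1% of all genes positive. With edgeR 0 were called, against 10.4% of all genes higher and 3.69% lower, and 0 had an unadjusted p below 0.05, against 18.2% and 13%. DESeq2 and limma-voom also called 0. Psmg1, Psmg2, Psmg3 and Psmg4, which assemble the alpha ring, had log2 fold changes of -0.03, 0.12, -0.03 and -0.20, with standard errors from 0.18 to 0.23. Psmd10, also known as gankyrin, had 0.21 (SE 0.21, edgeR adjusted p = 0.533), Psmd5 had 0.09 and Psmd9 had -0.08, all of them chaperones of the base. Pomp, the chaperone that matures the beta ring and is not covered by the rule, had at most 7.15 CPM in the control group and at least 7.24 CPM in the stress group (log2 fold change 0.45, SE 0.16, edgeR adjusted p = 0.0818), without overlap.

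The genes around the proteasome were described from lists of related function. Of 11 tested proteasome-associated genes, 1 rose (Shfm1, above) and 0 fell by edgeR, against 10.4% and 3.69% of all genes. The list median was 0.24, and DESeq2 and limma-voom each called Shfm1 and Zfand5 higher. Psmf1, a proteasome inhibitor, had a log2 fold change of 0.66 (SE 0.29, edgeR adjusted p = 0.147), with a ratio to Bpgm that ranged over 1.52-fold. Zfand5, a ubiquitin-binding activator of the proteasome, had 23.5 to 29.1 CPM in the control group and 30.5 to 35.4 CPM in the stress group, without overlap (log2 fold change 0.32, SE 0.10, edgeR adjusted p = 0.0584). Among 5 regulators of proteasome genes, 1 rose by edgeR, against 10.4% of all genes. Nfe2l2, the oxidative stress regulator NRF2, had 23.2, 20.5, 22.0 and 26.8 CPM in the control samples and 34.7, 29.6, 31.0 and 29.6 CPM in the stress samples. The groups did not overlap, and the log2 fold change was 0.44 (SE 0.11, edgeR adjusted p = 0.0200). Nfe2l1, the factor that raises proteasome gene transcription when the proteasome is inhibited, had a log2 fold change of -0.15 (SE 0.10, edgeR adjusted p = 0.311).

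Ubiquitin and the shuttling of tagged substrates were described by a few genes. Ubb, a polyubiquitin gene, had 1909, 1399, 993 and 2441 CPM in the control samples and 3228, 3762, 4641 and 2345 CPM in the stress samples. Control replicate 4 lay above stress replicate 4, as for Psmd4, and the log2 fold change was 1.05 (SE 0.32, edgeR adjusted p = 0.0443). The ratio of Ubb to Bpgm ranged over 1.40-fold, narrower than the 3.16-fold or more of the 43 members other than Psme3 and Psmd4. Rad23b, a shuttle that carries ubiquitin-tagged proteins to the proteasome, had a log2 fold change of -0.15 (edgeR adjusted p = 0.374).

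The partners of the immunoproteasome gave 0 calls among 10 genes of MHC class I loading by edgeR, against 10.4% of all genes higher and 3.69% lower. At an unadjusted p below 0.05, 1 was higher and 1 lower, against 18.2% and 13% of all genes. The list median was 0.05. DESeq2 called B2m and H2-D1 higher, and limma-voom called B2m. B2m, the invariant light chain of MHC class I, had 591 to 757 CPM in the control group and 886 to 1292 CPM in the stress group, without overlap (log2 fold change 0.58, SE 0.20, edgeR adjusted p = 0.0653). Nlrc5, the transactivator of MHC class I genes, had 48.0 to 57.0 CPM in the control group and 25.1 to 44.9 CPM in the stress group, also without overlap but lower (log2 fold change -0.45, SE 0.15, edgeR adjusted p = 0.0676). Tap1, a subunit of the peptide transporter, had a log2 fold change of -0.15 (edgeR adjusted p = 0.373). Of 6 genes induced by interferon-gamma, 1 rose and 0 fell by edgeR, against 10.4% and 3.69% of all genes. The list median was 0.13. The gene that rose was Igtp, an interferon-inducible GTPase, with 43.5, 36.5, 43.4 and 49.6 CPM in the control samples. It had 73.4, 60.2, 67.1 and 55.8 CPM in the stress samples (log2 fold change 0.57, SE 0.12, edgeR adjusted p = 0.00934). Exons of Igtp overlap those of Irgm2 on the same strand, so reads of the overlap may belong to either gene. Gbp2, another interferon-inducible GTPase, had a log2 fold change of 0.30 (edgeR adjusted p = 0.136). Irf1, a transcription factor of the interferon-gamma response, had a log2 fold change of 0.11 (edgeR adjusted p = 0.612).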

How the data were processed

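Illumina TruSeq libraries were made from the RNA of whole blood of 4 control and 4 stressed mice. The authors deposited raw counts per gene symbol, without normalization. The submitters' processing notes name HISAT2, featureCounts and the build mm10, while versions, annotation and strand setting are not given in the sources used here. The authors' own list of differential genes was not used.

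The members and all gene lists were chosen with earlier results of these data known. Genes reaching 10 counts in 4 or more samples were fitted with edgeR 4.0.16 in R 4.3.3 (TMM scaling, robust quasi-likelihood test, Benjamini-Hochberg adjustment over all tested genes), and every CPM value (a count scaled to library size) uses that scaling. Named members were the catalytic, immunoproteasome, activator and Psmg genes and, in each class, the members with the largest positive and the most negative change, together with any called member. Of the lists of related function, the called genes and those with the smallest p were named. Others were named after their values were seen. Ratios of counts were compared by exact permutation tests with 70 assignments of the samples. Positions and exon lengths came from GENCODE annotation of GRCm38, promoters from RefSeq. Alternatives were DESeq2 1.42.0, limma-voom (limma 3.58.1), other scalings and filters, a block for the replicate number and fits that each lacked 1 sample. The fit was tested on simulated data. The lowest count of a tested member in a sample was 20, and 4 samples per group limit the precision. Some genes of the lists of related function are not reported here.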

Additional observations from a re-analysis of the deposited data

Results flagged for a closer look

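Stress replicate 3 lay far above the other 3 samples of its group for 3 members, by Dixon's test at its 95% critical value. Psmb10 had 29.2 CPM in this sample and 17.9 to 19.2 CPM in the others. Psma3, a structural alpha subunit, had 19.9 CPM against 12.4 to 13.2 CPM. Psmc6, an ATPase of the base, had 15.9 CPM against 10.2 to 10.8 CPM. Chance alone marks about 1 in 20 groups, and 3 of 96 sets of values examined were marked. This library also had the highest haemoglobin share (75.5%) and the fewest other counts (6352711), and the part of these in the values was not tested.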

How the results depend on the processing

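The count of 1 member called higher became 4 with DESeq2 (Psmd13, Psmd4, Psmd8 and Psme3), 3 with limma-voom, 2 with size factors of the RLE kind and 0 on total counts alone, and it ranged from 0 to 4 when 1 sample was left out: 0 without control replicate 1, 2 or 3, 3 without control replicate 4, 2 without stress replicate 1 or 2 and 4 without stress replicate 4. The upper-quartile scaling, the removal of haemoglobin genes and both other count filters left it at 1. Over all genes, these called 1149 of 11718, 1208 of 11711, 1131 of 15930 and 1172 of 10367 genes higher. The main fit called 1222 of 11718 higher, RLE size factors 1251, limma-voom 1356 and total counts alone 52. Fits lacking control replicate 1, 2, 3 or 4 called 948 of 11560, 617 of 11531, 690 of 11491 and 1425 of 11595. The fit lacking stress replicate 4 called 1330 of 11592. Calls over all genes thus also fell where 0 members were called and rose where 3 or 4 were. Without stress replicate 1 or 2, more members but fewer of all genes were called. On total counts alone 11 members were called lower, against 49.6% of all genes. The class medians were -0.69 (core), -0.72 (regulatory), -0.67 (activator), -0.83 (assembly chaperone) and -0.70 (immunoproteasome). That scaling turned Psmd13 to -0.43, Psmb4 to -0.50, Psmb5 to -0.53, Psmb7 to -0.56, Psmb8 to -0.70, Psmb10 to -0.63, Psmd4 to -0.011, Psmd10 to -0.59, Psme1 to -0.63, Psme4 to -0.70 and Psmg2 to -0.72, since it omits the TMM factors (1.01 to 1.77 in the control group, 0.507 to 1.10 in the stress group). Near 0, leaving out 1 sample changed the sign of Psmb6 (-0.12 to 0.076), Psmb9 (-0.057 to 0.029), Psmd6 (-0.074 to 0.064), Psme2 (-0.15 to 0.064, and 0.061 with Psme2b added, an alternative chosen after seeing the data), Psmg1 (-0.15 to 0.072), Psmg3 (-0.17 to 0.064) and of the ratios Psmb9 to Psmb6 (-0.078 to 0.074) and Psmb10 to Psmb7 (-0.12 to 0.042). The Psmb8 to Psmb5 ratio kept its sign (-0.27 to -0.048). Samples with the same replicate number did not deviate together (correlations from -0.23 to 0.08 over 4 pairs), so the numbers were not treated as pairing. With a replicate block 0 members were called, against 919 of 11718 genes higher and 240 lower, and Psmd13 had 0.39 (edgeR adjusted p = 0.0539). Apart from the scaling and the loss of samples, the cause of these changes was not tested.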
